A study of Mus musculus with 24 samples.

Results

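The comparison described here is the earliest one of a study of dietary methionine restriction (MR) in mouse liver: 6 MR mice against 6 mice on the control diet (Con), all killed 3 h after food was returned. These 12 livers were chosen by their diet and time labels alone, out of 24 in the series; the other 12 come from separate mice killed at 6 h. All mice were male C57BL6/J, 2 months old, had been adapted to the Con diet and a reversed light cycle, and had gone without food during the light phase. At lights off the Con mice again received food with 0.86% methionine and the MR mice received food with 0.17% methionine, both made from free amino acids. Every mouse, Con included, was therefore in the first hours of refeeding, and the diets differed only over those hours. The MR food also held more glutamic acid than the Con food, and neither food held cystine. Sequencing covered the 3′ ends of polyadenylated transcripts, and 9049 genes are listed. Levels are in units of the authors' score, whose sum was between 994641 and 995314 in each liver of 3 h, scaled further by TMM factors (trimmed means of the log ratios between libraries). Since every library was brought to almost the same total and rounded by the authors, the number of reads behind a value is unknown, and genes near 5 units can take only a few values. Liver is a mixture of cells, and a change in the share of a cell type cannot be told apart here from a change of RNA per cell.

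Methionine is an essential amino acid that starts nearly every protein and, as S-adenosylmethionine, donates the methyl groups used on DNA, RNA, histones and lipids. When an amino acid is short, uncharged tRNA activates the kinase GCN2, translation initiation slows, and the transcription factor ATF4 is made in larger amounts and switches on genes for amino acid transport, tRNA charging and stress control. Ribosome production is the other large consumer of a cell's resources that is set by nutrient supply: RNA polymerase I copies ribosomal DNA in the nucleolus, and a large set of assembly factors modify, cut and fold the transcript together with ribosomal proteins. In liver, both systems respond to feeding.

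No gene passed the test between MR and Con at 3 h. Of 9049 genes, 0 had an adjusted p under 0.05 in limma, which is 0% of those tested, and the smallest adjusted p was 0.553. An unadjusted p under 0.05 was found for 603 genes (6.66%), 346 higher in MR (3.82%) and 257 lower (2.84%), and these shares are the background for every count given below. In 18 genes (0.199%) the 6 MR mice did not overlap the 6 Con mice, 9 in each direction (0.0995% each). Of these 18, 6 were also separate in the deposited table before TMM scaling (Casp9, Cdk12, Ddx18, Fxr1, Sltm and Trex1), so for the other 12 the lack of overlap rests on the scaling. The log2 fold change lay above 0 for 4531 genes (50.1%) and below 0 for 4517 genes (49.9%), and the median half-width of its 95% interval was 0.18. At 6 h, in other mice, 67 genes (0.740%) passed the same test, 55 higher in MR (0.608%) and 12 lower (0.133%). The words higher and lower below compare levels, and none of the 3 h differences passed after adjustment.

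The libraries of 3 h correlated at 0.980 or more with each other across genes. MR mouse m4223 carried transcripts of the exocrine pancreas: the 13 measured genes of a 37-gene pancreas list summed to 2009 units in that liver and to between 22.2 and 41.8 units in the other 11. Of 20 marker genes of lymphocytes and neutrophils, 0 were measured. The summed level of 18 measured hepatocyte markers ran from 192230 to 207050 units in Con and from 186050 to 226200 units in MR, and 16 of them were above 0 (median 0.08), 2 at an unadjusted p under 0.05. Kupffer cell and macrophage markers (17 measured, 2 of them above 0) summed to between 607 and 918 units in Con and between 547 and 691 units in MR, and Con mouse m4233 had the highest sum. No batch is given in the labels.

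Genes of nucleolar ribosome assembly lay mostly above Con in MR livers at 3 h, and they made up 40 of the 346 genes that were higher at an unadjusted p under 0.05. The list was put together after the leading genes had been seen and holds 133 genes, of which 123 were measured. Of these, 103 had a log2 fold change above 0, with a median of 0.11 against 0.00 over all genes. An unadjusted p under 0.05 with a higher level in MR was reached by 40 of them, which is 32.5% against the background of 3.82%, and 3 reached it with a lower level (Emg1, Tbl3 and Imp4). The remaining 80 did not reach it. None passed the adjusted test, and because the list was drawn from these values the counts are a description.

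Promoter stretches are shown for the leading genes of this list that hold the letters CACGTG, the core of the E-box bound by MYC, the best known regulator of ribosome production, and by several other factors, because the members shared a direction at 3 h. All sequences are from the RefSeq annotation of GRCm38.p6, 5′ to 3′ on the strand of the gene, with the motif in capitals. Cirh1a, listed in RefSeq as Utp4, lies on chromosome 8 from 106893640 to 106923094, and the stretch is chr8:106893643-106893672 on the plus strand, within the first bases of the transcript. Wdr43 lies on chromosome 17 from 71616178 to 71659031 (stretch chr17:71616220-71616249, plus strand, likewise inside the transcript). Nop2 lies on chromosome 6 from 125131883 to 125144753 (stretch chr6:125131797-125131856, plus strand, upstream of the start).
Cirh1a: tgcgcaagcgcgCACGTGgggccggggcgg
Wdr43: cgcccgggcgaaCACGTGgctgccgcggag
Nop2: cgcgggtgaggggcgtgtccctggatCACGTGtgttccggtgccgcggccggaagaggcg
The motif starts at base 16 of the transcript in Cirh1a, at base 18 in Wdr43 and at −60 in Nop2. For Wdr43 this is counted from the start at 71616215 that the promoter table uses, which lies inside the gene's outer bounds. In windows from 250 bases before to 50 bases after the start, CACGTG (its own reverse complement, so both strands are covered) was present in 20 of 104 genes of the list that have a window (19.2%). It was present in 887 of 7163 tested genes with a window (12.4%) and in 2349 of 32851 windows in all (7.15%). Among target genes of ATF4 with a window, 4 of 26 held it (15.4%). A match of letters is no measurement of binding.

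Cirh1a, a component of the small subunit processome that prepares 18S rRNA, had the smallest p of all genes. Its levels in Con were between 14.9 and 19.5 units with a median of 17.97, and in MR between 19.2 and 27.2 units with a median of 22.0. The lowest MR mouse overlapped the 2 highest Con mice, and the other 5 MR mice lay above all Con mice. This gave a log2 fold change of 0.33 (standard error 0.07), and the exact two-sided permutation test over the 12 mice gave p = 0.00649.

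Ddx21, an RNA helicase that links RNA polymerase I transcription to rRNA processing, lies on chromosome 10 from 62580247 to 62602298. It had 24.3 to 30.1 units in Con (median 27.4) and 30.3 to 39.3 units in MR (median 33.6), so that every MR mouse was above every Con mouse by a narrow margin, and before TMM scaling the groups overlapped. Its log2 fold change was 0.31 (standard error 0.08, exact permutation p = 0.00216, the smallest that 924 divisions of the mice allow). Ddx18, a helicase of large subunit assembly, was the other member without overlap, with 14.2 to 16.4 units in Con and 16.7 to 23.2 units in MR. On the log2 scale this was a difference of 0.25 (standard error 0.08). Thus 2 of 123 members had no overlap with the MR mice higher, against 0.0995% of all genes.

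Wdr43, another processome subunit, had 18.2 to 24.7 units in Con (median 21.5) and 23.3 to 33.2 units in MR (median 29.2). The log2 fold change of Wdr43 was 0.36 (standard error 0.10, exact permutation p = 0.0173), with 2 MR mice inside the Con range. Dhx37, the helicase that releases the U3 small nucleolar RNA, had 4.94 to 6.14 units in Con and 5.86 to 8.06 units in MR, at a level where rounding sets much of the spread. On the log2 scale Dhx37 differed by 0.27 (standard error 0.07). These 4 genes, Cirh1a, Ddx21, Wdr43 and Dhx37, had the smallest p of the list, and the members named in the next paragraph were picked after their values had been seen.

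Most measured members of each step of ribosome assembly lay to the same side. Of 12 measured genes for RNA polymerase I and its factors, 12 were above 0 (median 0.12) and 5 had an unadjusted p under 0.05. Polr1b, the second largest subunit of the enzyme, had a mean of 9.10 ± 0.95 units in Con and 11.1 ± 1.221 units in MR (SD, n = 6 each). Rrn3, which brings the polymerase to its promoter, had 17.5 ± 6.30 and 22.7 ± 3.62 units (SD, n = 6 each), and its groups overlapped widely. Of 8 genes for the small nucleolar ribonucleoproteins that guide methylation and pseudouridylation of rRNA, 7 were above 0. Nop56, a core protein of the methylation guides, had 14.9 to 23.4 units in Con and 21.2 to 37.3 units in MR, and its log2 fold change was 0.40 (standard error 0.13). Its partner Fbl, the methyltransferase itself, had 15.7 ± 0.56 units in Con and 16.1 ± 1.44 units in MR (SD, n = 6 each), a log2 fold change of 0.02 with a 95% interval from −0.14 to 0.18. Of 33 small subunit processome genes 30 were above 0 (median 0.12), and of 33 large subunit assembly genes 28 were (median 0.08), with 13 and 8 at an unadjusted p under 0.05 in that direction. The 3 members of the list that reached it with a lower level, Emg1, Tbl3 and Imp4, were all among the 33 processome genes. Over all genes 2.84% reached it with a lower level.

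Among the large subunit factors, Nop2, an rRNA cytosine methyltransferase, had 18.9 to 24.6 units in Con (median 22.5) and 24.3 to 35.3 units in MR (median 27.6). The lowest MR mouse was level with the highest Con mice and the other 5 were above them. The log2 fold change was 0.35 (standard error 0.10, exact permutation p = 0.00866). Gnl3, the nucleolar GTPase nucleostemin, had 24.9 to 45.02 units in Con (median 35.8) and 37.4 to 59.6 units in MR (median 49.4). Its log2 fold change of 0.41 (standard error 0.13) was the largest of the list. Npm1, nucleophosmin, the most abundant member, was nearly level, with 170 to 193 units in Con and 163 to 206 units in MR and a log2 fold change of 0.03 (95% interval from −0.09 to 0.16).

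**Figure D1:**
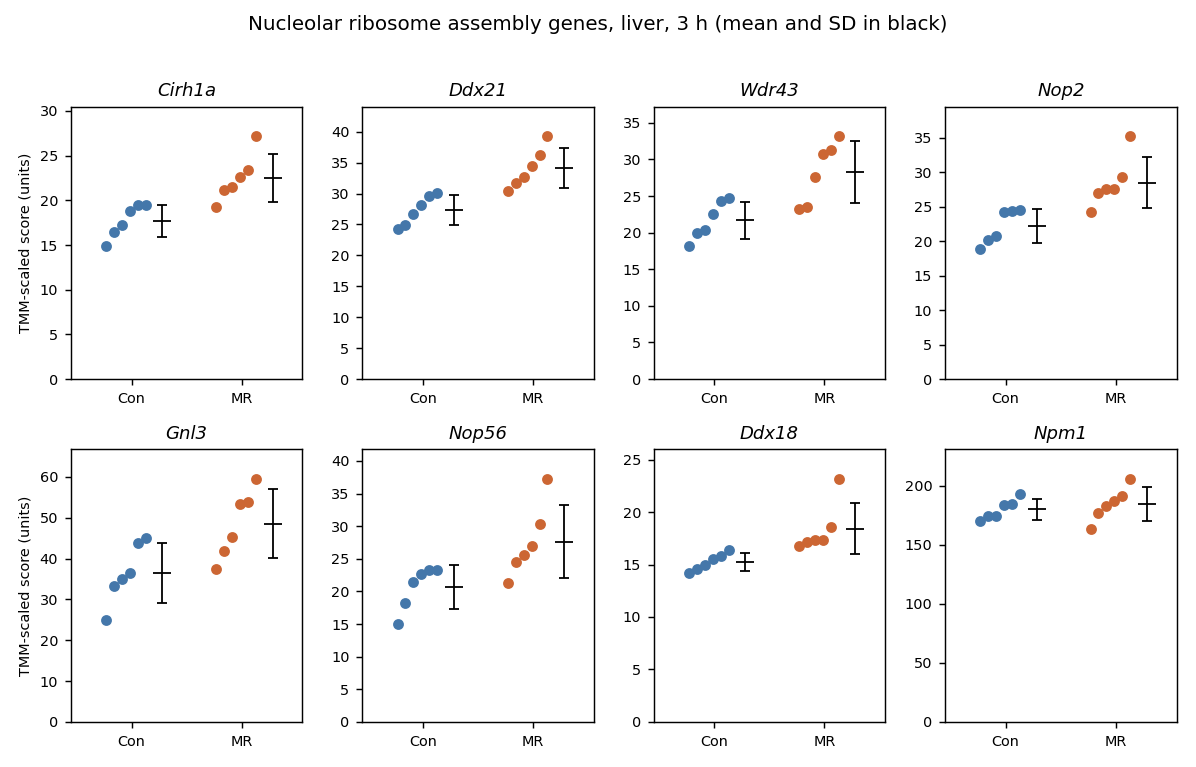
Levels of 8 nucleolar genes in each mouse at 3 h, in TMM-scaled score units on axes that start at 0, with points for the 6 Con (blue) and 6 MR (orange) mice and the mean and SD beside them in black. In Ddx21 and Ddx18 the 6 MR mice lie above the 6 Con mice, in Cirh1a, Wdr43, Nop2, Gnl3 and Nop56 the groups overlap in part, and in Npm1 they coincide.

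Averaged over the 123 members, each mouse's deviation from the mean of the 12 mice on the log2 scale ran from −0.13 to 0.01 in Con (median −0.06) and from −0.05 to 0.16 in MR (median 0.06). MR mouse m4208 was the only MR mouse within the Con range, and MR mouse m4209 was the highest. The count of 40 became 27 without m4209 (22% against 2.3% of all genes) and 29 without Con mouse m4233 (23.6% against 3.57%). Without m4223, the liver with pancreas transcripts, it was 36 (29.3% against 3.83%). The median kept between 0.09 and 0.13 whichever mouse was left out. The members are low in this tissue, with mean levels from 3.64 to 182 units and a median of 16.4 units. Among the 90 members with a mean of at least 10 units 26 reached an unadjusted p under 0.05 in the higher direction (28.9% against 3.53%), and among the 9 with at least 50 units 1 did (11.1% against 1.39%).

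Transcript length moved with the fold change over all genes. The median log2 fold change was −0.04 in the shortest tercile of genes, 0.00 in the middle and 0.03 in the longest, over 8804 genes with a length, and it had the same order at 6 h. The nucleolar members had medians of 0.06, 0.15 and 0.12 in the same terciles. With the length trend removed from each library, 41 of the 123 had an unadjusted p under 0.05 with a higher level in MR, and the median was 0.12.

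At 6 h the same members had a median log2 fold change of 0.02 between the diets. The 6 h minus 3 h difference of the diet effects was below 0 for 96 of 123 members, against 4487 of 9049 genes. It had an unadjusted p under 0.05 in that direction for 13 of the 123, against 2.71% of all genes. The list was put together after the leading genes of 3 h had been seen, and this difference subtracts the 3 h values. The choice of members therefore favours values below 0, and these counts are a description. For 0 members did the difference pass the adjusted test, so a difference between the times was not shown. The level in Con livers itself was lower at 6 h: 52 of the 123 members (42.3%) fell between Con at 3 h and Con at 6 h at an adjusted p under 0.05 in limma and 0 rose, where 939 of all genes fell (10.4%) and 835 rose (9.23%). Gnl3 fell by 0.64 on the log2 scale (adjusted p = 0.00097 from limma), Nop2 by 0.63, Polr1b by 0.53, Wdr43 by 0.48 and Cirh1a by 0.28. This comparison uses the Con mice of 3 h that also enter the diet comparison, so the 2 sets of values are not independent.

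Cytosolic ribosomal protein genes, whose products the assembly factors join to rRNA, lay on the opposite side. Of 71 measured, 5 were above 0 and 66 below, with a median of −0.11, 0 at an unadjusted p under 0.05 with a higher level and 6 with a lower one. The mean over the list ran from −0.11 to 0.29 in Con mice and from −0.25 to 0.12 in MR mice, and MR mouse m4209, the highest for the assembly factors, was the lowest here. The ribosomal protein genes had a median mean level of 188 units, far above that of the assembly factors, and their transcripts are short. Respiratory chain and ATP synthase genes lay on the side of the ribosomal protein genes, with 65 of 76 below 0 and a median of −0.09. Of these 76, 0 had an unadjusted p under 0.05 with a higher level and 6 with a lower one. In the shortest tercile of transcript length were 62 of them. In both lists m4220 was the highest Con mouse and m4209 the lowest MR mouse. Nuclear pore and transport genes lay on the side of the assembly factors, with 43 of 48 above 0, a median of 0.09 and 10 at an unadjusted p under 0.05 in that direction. In the longest tercile of transcript length were 30 of these 48, and 8 of the 10.

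**Figure D2:**
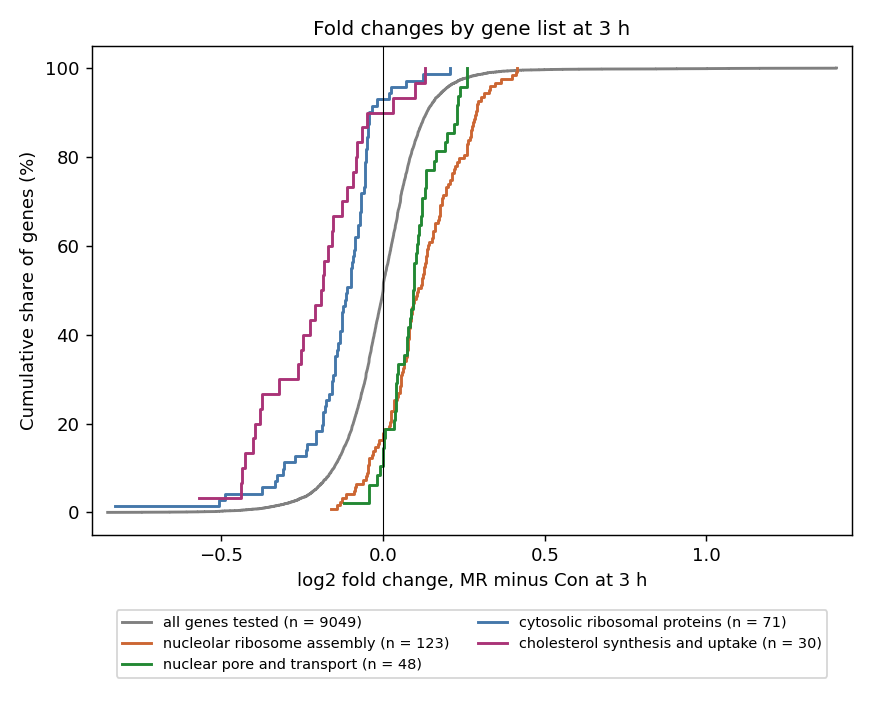
Cumulative share of genes (%) against the log2 fold change of MR minus Con at 3 h, for all 9049 genes tested (grey) and 4 lists in colour. The curves for nucleolar assembly (median 0.11) and nuclear pore genes (median 0.09) lie to the right of the grey curve, and those for cytosolic ribosomal proteins (median −0.11) and cholesterol synthesis (median −0.19) to its left.

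Outside the nucleolus, the gene with a high level and a large difference was Egfr, the receptor for epidermal growth factor, which is abundant on hepatocytes and drives their growth in regeneration. It lies on chromosome 11 from 16752203 to 16913907. Con livers had 140 to 349 units (median 230) and MR livers 312 to 421 units (median 382). Only 1 Con mouse lay above the lowest MR mouse. Egfr had a log2 fold change of 0.68 (standard error 0.18, 95% interval from 0.31 to 1.04), with an exact permutation p = 0.00433 and an adjusted p of 0.553 in limma. It ran from 0.53 to 0.79 when single mice were left out. At 6 h it was 0.46 (adjusted p = 0.249 in limma). In a list of the EGF receptor family, the receptor Met, their ligands and feedback proteins, made after Egfr had been seen, 6 of 21 measured genes were above 0, and Egfr was the only one with an unadjusted p under 0.05. The receptor Erbb3 had a log2 fold change of −0.14 and Met −0.05.

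Of the remaining genes with the smallest p, Btd, the biotinidase that recycles biotin, had 65.2 to 82.9 units in Con and 78.9 to 94.8 units in MR. Its log2 fold change was 0.26 (standard error 0.07, exact permutation p = 0.00649). Fxr1, an RNA-binding protein of the fragile X family, had 29.9 to 33.6 units in Con and 34.5 to 39.1 units in MR with no overlap, a log2 fold change of 0.16. Ezh1, a histone H3 lysine methyltransferase that uses S-adenosylmethionine, had 6.91 to 9.21 units in Con and 8.66 to 10.1 units in MR, a log2 fold change of 0.26. Adgrl2, an adhesion G protein-coupled receptor, had 15.2 to 28.2 and 25.5 to 35.3 units, and Poldip3, an mRNA export factor, had 20.2 to 24.3 and 24.1 to 30.2 units. Cdk12, the kinase that phosphorylates RNA polymerase II during elongation, and Cobl, an actin nucleator, also had no overlap. Their levels were 3.95 to 5.12 units in Con and 5.77 to 6.13 units in MR for Cdk12, and 4.94 to 6.07 against 6.13 to 7.08 units for Cobl, so that for Cdk12 a single unit of the rounded table separates the groups (4 to 5 in Con, 6 in MR), while for Cobl the rounded value 6 occurs in both groups and only the scaling separates them. Cdk12 was also among the genes that passed at 6 h, at 0.27 (adjusted p = 0.0378 in limma), as was the chromatin protein Sltm, which had 17.9 to 21.5 units in Con and 21.7 to 26.6 units in MR at 3 h. The nuclear long non-coding RNA Malat1, named after its values were seen, had 59.2 to 174 units in Con and 101 to 290 units in MR, a log2 fold change of 0.85 whose 95% interval, from 0.22 to 1.47, is among the wider ones.

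Among genes lower in MR, Sirt7, the nucleolar sirtuin that binds RNA polymerase I, had the smallest p. Its levels were 31.1 to 35.8 units in Con (median 35.1) and 25.4 to 31.7 units in MR (median 27.7), with 1 Con mouse below the highest MR mouse. The log2 fold change was −0.28 (standard error 0.07, exact permutation p = 0.00433). H3f3b, which encodes the replacement histone H3.3, had 138 to 163 units in Con (median 144) and 120 to 136 units in MR (median 128). The groups did not overlap, but before TMM scaling they did, with 140 to 164 in Con and 117 to 141 in MR. The log2 fold change of H3f3b was −0.20 (standard error 0.05). Pxdc1 had 40.4 to 66.7 units in Con and 32.2 to 40.3 units in MR, again without overlap, although the highest MR mouse and the lowest Con mouse were almost level. Before TMM scaling the value 40 occurred in both groups of Pxdc1. Its log2 fold change was −0.44 (standard error 0.12).

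Krt8, a keratin of hepatocytes and bile duct cells, had 114 to 150 units in Con and 79.1 to 133 units in MR (log2 fold change −0.37), and Zfyve21, an endosomal protein, had 40.9 to 63.7 and 33.3 to 44.9 units (log2 fold change −0.43). The cholangiocyte marker list, which holds Krt8, had 4 of 5 measured genes below 0, with a median of −0.23 and Krt8 alone at an unadjusted p under 0.05. Its summed level ran from 286.5 to 374 units in Con and from 236 to 331 units in MR, and the part of bile duct RNA in the Krt8 result was not tested. Bcat2, the mitochondrial transaminase of branched-chain amino acids, had −0.28 and Tnfsf10, the death ligand TRAIL, −0.39. Groups that did not overlap were also found for Trex1, a DNA exonuclease, with 11.7 to 12.6 units in Con and 7.82 to 11.2 units in MR. The initiator caspase Casp9 had 8.74 to 9.21 and 5.77 to 8.17 units. Lamtor1, the membrane anchor of the Ragulator complex that brings mTORC1 to lysosomes, had 72.7 to 95.8 units in Con and 61.5 to 72.6 units in MR. Before TMM scaling its groups overlapped, with 73 to 97 in Con and 63 to 75 in MR. The log2 fold change of Lamtor1 was −0.18 (standard error 0.07). Its complex partner Lamtor4 had −0.21, while over the list of mTORC1 and amino acid sensing 18 of 37 genes were above 0.

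**Figure D3:**
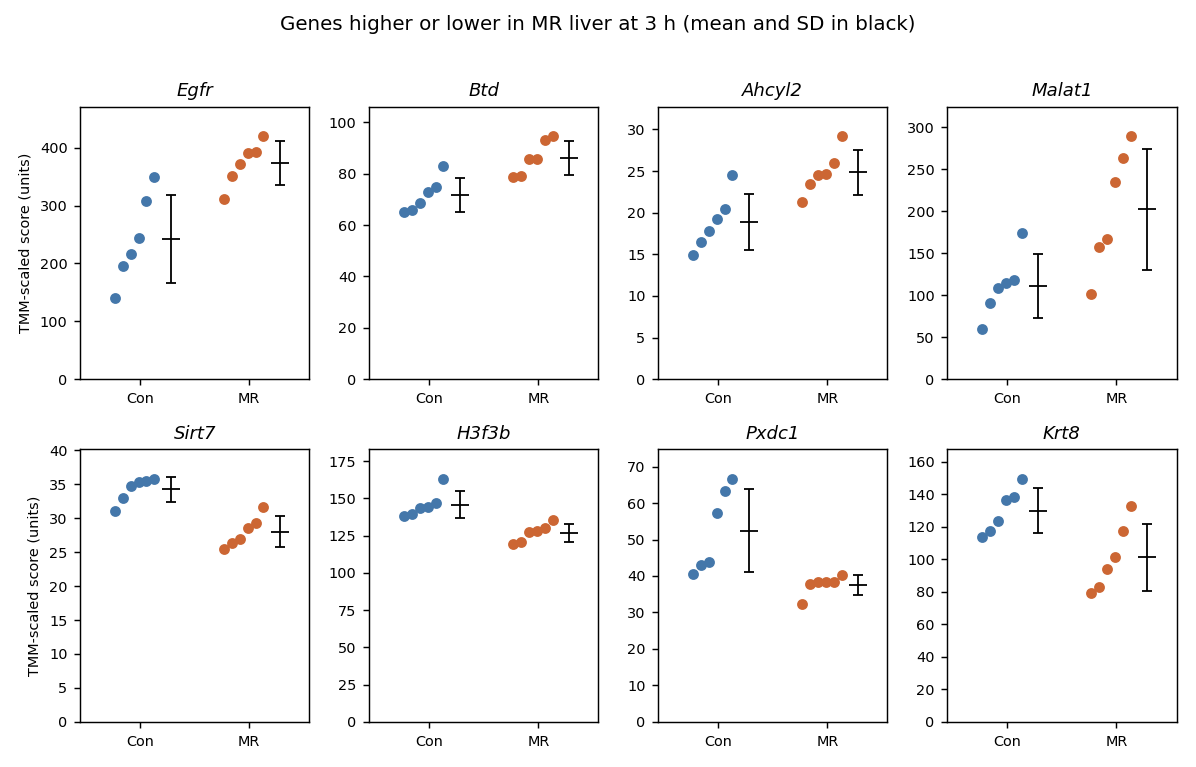
Levels of 8 genes outside the nucleolar list in each mouse at 3 h, in TMM-scaled score units on axes that start at 0, with points for the 6 Con (blue) and 6 MR (orange) mice and the mean and SD in black. Egfr, Btd, Ahcyl2 and Malat1 are higher in MR with partial overlap, H3f3b and Pxdc1 are lower without overlap, and Sirt7 and Krt8 are lower with partial overlap.

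In the methionine cycle and trans-sulfuration, the pathways that the diet supplies, levels were close to Con. Of 22 measured genes 11 were above 0, with a median of 0.01, and 2 had an unadjusted p under 0.05 with a higher level and 1 with a lower one. Ahcyl2, a relative of S-adenosylhomocysteine hydrolase, had 14.9 to 24.6 units in Con (median 18.5) and 21.2 to 29.2 units in MR (median 24.6). Its log2 fold change was 0.39 (standard error 0.12, exact permutation p = 0.0108) at 3 h and −0.03 at 6 h. Mtrr, the reductase that keeps methionine synthase active, had 4.86 to 6.14 and 5.11 to 7.06 units. Mpst, which forms sulfur species from cysteine breakdown, had 91.4 to 157 units in Con and 77.2 to 131 units in MR, and the log2 fold change was −0.31 (standard error 0.15). Among 37 methyltransferases that use S-adenosylmethionine, 25 were above 0 and 4 had an unadjusted p under 0.05 with a higher level. Ezh1 at 0.26 and the arginine methyltransferases Prmt5 at 0.27 and Prmt3 at 0.25 were among them. Inmt, an amine methyltransferase, had −0.32 as the 1 member that reached it with a lower level. The mean over this list ran from −0.038 to −0.004 in Con mice and from 0.003 to 0.051 in MR mice. Its summed level overlapped between the diets, with 5478 to 6779 units in Con and 5406 to 6123 units in MR. At 6 h 13 of the 37 were above 0, with a median of −0.03.

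Genes of the amino acid response had small or widely spread differences at 3 h. Of 31 measured ATF4 target genes, 21 were above 0 at 3 h, with a median of 0.04 and 0 at an unadjusted p under 0.05 in either direction, whereas at 6 h, in other mice, 17 passed the adjusted test with higher levels and the median was 0.65. Trib3, a pseudokinase induced by ATF4, had 2.02 to 2.99 units in Con and 1.95 to 3.03 units in MR at 3 h, a log2 fold change of 0.00 with a 95% interval from −0.23 to 0.23. At 6 h it rose by 1.43 (adjusted p = 1.81e-08 in limma), and the difference between the times passed (adjusted p = 2.05e-05 in limma). Sesn2, an inhibitor of mTORC1, had −0.17 at 3 h and 1.14 at 6 h (adjusted p = 0.0103 for the difference, limma). The tRNA synthetases Mars, for methionine, and Cars, for cysteine, had 0.02 and 0.06 at 3 h and 0.71 and 1.04 at 6 h (adjusted p for the difference 0.0364 for Mars and 0.0481 for Cars, limma). Eif4ebp1, the translation repressor, and Ikbkg, a subunit of the kinase of NF-kB inhibitors, were the other genes among the 6 (0.0663% of those tested) whose diet effect differed between the times. Eif4ebp1 had 53.5 to 67.7 units in Con and 56.5 to 65.4 units in MR at 3 h.

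Fgf21, the liver hormone of amino acid shortage, spread over a wide range in both groups at 3 h. Con mice had 1.01 to 23.7 units with a median of 3.89, and MR mice 1.95 to 36.6 units with a median of 9.95, and the groups covered one another. The log2 fold change was 0.48 with a 95% interval from −0.85 to 1.801 (exact permutation p = 0.574), so the 3 h data leave room for a difference of more than 1 on this scale in Fgf21. At 6 h it was 3.20 (adjusted p = 0.0168 in limma), and the difference between the times did not pass (adjusted p = 0.512). Chac1, which degrades glutathione, had 0 to 5.06 units in Con and 0.98 to 6.73 units in MR, a log2 fold change of 0.43 at 3 h and 3.07 at 6 h. Asns, asparagine synthetase, had 2.91 to 10.2 and 2.93 to 8.66 units (log2 fold change −0.06), Psat1, of serine synthesis, had 0.10, and Ddit4, an inhibitor of mTORC1, had 0.04. The transcript of Atf4 itself, which is regulated mainly in translation, had 121 to 227 units in Con and 123 to 198 units in MR, a log2 fold change of 0.07.

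Promoter stretches are shown for 4 of these genes, whose log2 fold changes had intervals that include 0 at 3 h and values above 1 at 6 h, around the letters TGATGNAA, the core of the amino acid response element bound by ATF4 with C/EBP proteins. The sequences are again from RefSeq GRCm38.p6 on the strand of the gene, and in Trib3, Chac1 and Fgf21 the capitals show the motif on the opposite strand. The stretches are chr2:152344029-152344058 (minus strand, inside the Trib3 transcript), chr2:119351023-119351082 (plus strand, upstream of Chac1), chr7:45615596-45615655 (minus strand, upstream of Fgf21) and chr6:7693210-7693269 (minus strand, upstream of Asns). Within them the motif starts at base 15 of the transcript in Trib3, at −193 in Chac1, at −139 in Fgf21 and at −23 in Asns.
Trib3: attagctcaggtTTACATCAgccgggcggg
Chac1: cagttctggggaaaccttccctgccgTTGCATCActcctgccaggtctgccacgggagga
Fgf21: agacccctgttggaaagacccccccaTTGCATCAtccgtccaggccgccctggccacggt
Asns: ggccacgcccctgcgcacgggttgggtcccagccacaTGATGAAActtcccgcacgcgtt
On either strand of the same windows the letters were present in 8 of 26 ATF4 target genes with a window (30.8%), in 2 of 104 nucleolar genes (1.92%), in 197 of 7163 tested genes (2.75%) and in 1304 of 32851 windows (3.97%).

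Of the 55 genes higher in MR at 6 h, 45 were above 0 in the separate mice of 3 h, with a median of 0.07 there against 0.49 at 6 h, where they had been chosen. An unadjusted p under 0.05 with a higher level at 3 h was found for 7 of the 55 (background 3.82%): Cdk12, Sltm, the helicase Dhx9, the endoplasmic reticulum stress sensor Ern1, the isoleucyl-tRNA synthetase Iars, the secreted protein Tsku and Zfp672. Iars had 25.2 to 34.05 units in Con and 29.8 to 41.3 units in MR (log2 fold change 0.23, exact permutation p = 0.0325). Tsku had 72.1 to 121 and 105 to 209 units (log2 fold change 0.41, exact permutation p = 0.0195). Of the 12 genes lower at 6 h, 9 were below 0 at 3 h, with a median of −0.03. Among 20 cytosolic tRNA synthetases 17 were above 0 at 3 h, with a median of 0.05, and Iars was the only one with an unadjusted p under 0.05.

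**Figure D4:**
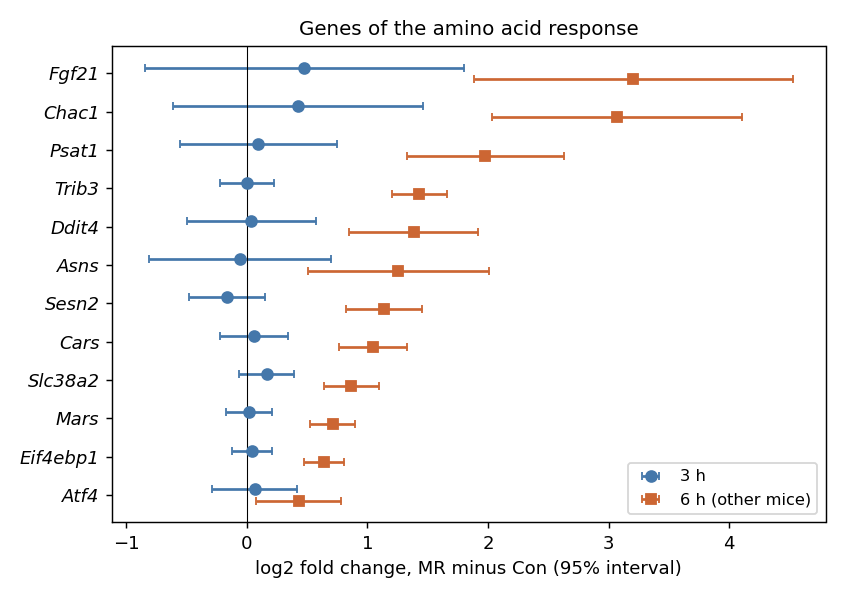
Log2 fold change of MR minus Con for 12 genes of the amino acid response at 3 h (blue circles) and at 6 h in other mice (orange squares), with 95% intervals from limma. All 12 intervals include 0 at 3 h, and at 6 h the values run from 0.43 for Atf4 to 3.20 for Fgf21.

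Genes of cholesterol synthesis and uptake were lower in MR on the whole, with large differences between mice of a diet. Of 30 measured genes 27 were below 0, with a median of −0.19, and 2 had an unadjusted p under 0.05 with a lower level (6.67% against 2.84%). Sc5d, of the last steps of synthesis, had 161 to 346 units in Con and 153 to 198 units in MR (log2 fold change −0.38, exact permutation p = 0.0476). Mvk, mevalonate kinase, had 12.6 to 26.7 and 8.79 to 20.2 units, and Insig1, the sterol-regulated brake on SREBP processing, had 57.3 to 199 and 34.2 to 99.8 units (log2 fold change −0.57, exact permutation p = 0.165). The list mean of single mice ran from −0.33 to 0.44 in Con and from −0.57 to 0.29 in MR. Con mice m4215 and m4233 lay among the low MR mice. MR mouse m4209 lay among the high Con mice, and MR mouse m4216 (0.10) was close to Con mouse m4218 (0.12). The peroxisomal thiolases Acaa1b (296 to 491 units in Con, 234 to 339 in MR) and Acaa1a (140 to 199 and 131 to 155) had log2 fold changes of −0.44 and −0.25, in a list of fatty acid oxidation genes of which 25 of 46 were above 0.

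Interferon response and chemokine genes lay lower in MR, with 37 of 39 below 0, a median of −0.19 and 3 at an unadjusted p under 0.05 in that direction (7.69% against 2.84%). Cxcl10, a chemokine for T cells, had 1.94 to 6.81 units in Con and 1.95 to 3.94 units in MR, and Isg15, a ubiquitin-like modifier, had 4.86 to 9.96 and 3.91 to 6.89 units. The list mean ran from −0.28 to 0.34 in Con and from −0.26 to 0.09 in MR. Con mice m4218 and m4233 were the highest, and m4233 also had the highest macrophage markers. Without m4233 the median was −0.12. The part of macrophage RNA in this result was not tested. Acute phase genes, secreted by hepatocytes, lay higher, with 23 of 32 above 0, a median of 0.13 and 4 at an unadjusted p under 0.05, as did 16 of the 18 hepatocyte markers, whose part in this result was not tested. Fga belongs to both lists, so their counts are not independent. Complement C3 had 1829 to 3178 units in Con and 2262 to 4370 units in MR (log2 fold change 0.37, exact permutation p = 0.0779), and Fga, the fibrinogen alpha chain, had a log2 fold change of 0.28. Orm2 had 0.35 and Itih3 0.24.

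Some genes that respond to feeding and hormones were also higher or lower in MR, with groups that overlapped. Per1, a clock gene also induced by glucocorticoids, had 2.96 to 7.08 units in Con and 5.11 to 9.10 units in MR, and the log2 fold change was 0.55 (standard error 0.21, exact permutation p = 0.0195) at 3 h and 0.02 at 6 h. Dbp, a clock-controlled transcription factor, had −0.35. G6pc, the phosphatase that releases glucose from liver, had 178 to 307 units in Con and 240 to 475 units in MR (log2 fold change 0.42), Pfkfb3, an enzyme that sets the pace of glycolysis, had 0.50, and Grb10, an adaptor that restrains the insulin receptor, had 0.46. Over the lists these genes come from, 11 of 20 clock genes, 13 of 23 gluconeogenesis genes, 20 of 28 glycolysis genes and 19 of 38 insulin signalling genes were above 0. Per1 is also in the list of immediate early genes, where 9 of 31 were above 0 and the median was −0.08. G protein-coupled receptors and G proteins had 15 of 52 above 0, a median of −0.07 and 5 at an unadjusted p under 0.05 with a lower level (9.62% against 2.84%). The mean over this list ran from −0.0002 to 0.061 in Con mice and from −0.084 to −0.004 in MR mice. Its summed level overlapped between the diets, with 1649 to 1775 units in Con and 1574 to 1663 units in MR. At 6 h 24 of the 52 were above 0, with a median of −0.01.

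**Figure D5:**
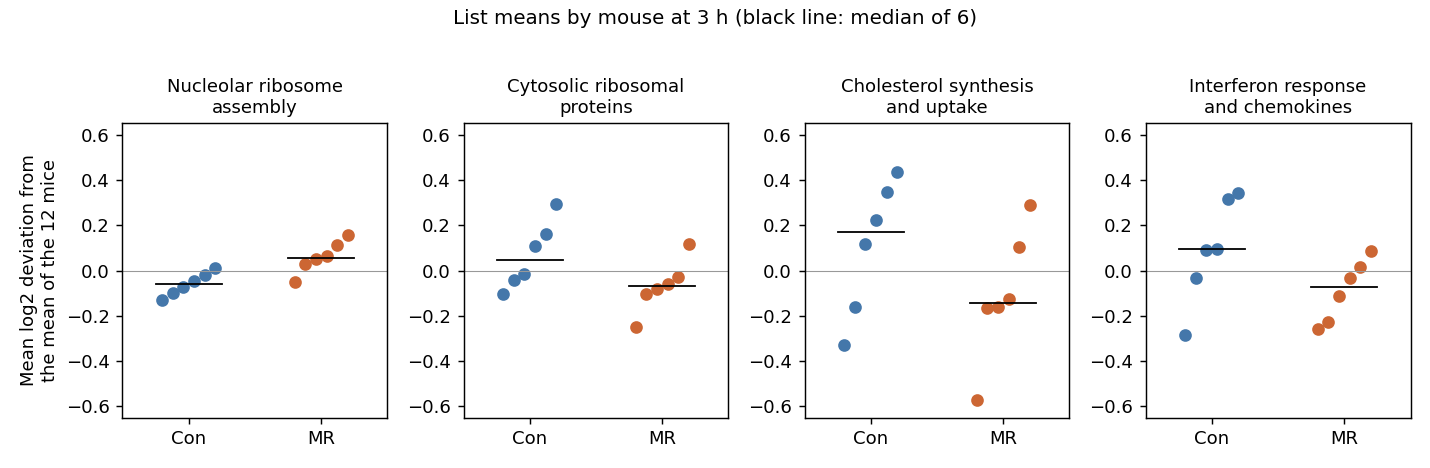
Mean deviation of 4 gene lists in each mouse at 3 h, on the log2 scale relative to the mean of the 12 mice, with points for Con (blue) and MR (orange) mice and a black line at the median of 6. For nucleolar assembly the medians are −0.06 and 0.06 with a narrow spread. For cholesterol synthesis single mice run from −0.33 to 0.44 in Con and from −0.57 to 0.29 in MR. The nucleolar list was put together after the leading genes of these mice had been seen. Its mean is over 123 genes, against 30 for cholesterol synthesis, so the lists are not compared on equal terms.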

How the data were processed

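Liver RNA of 24 mice was made into Lexogen QuantSeq 3′ libraries and read with 50 bp forward reads. The authors mapped and counted with the Lexogen pipeline on Bluebee and used CLC Genomics Workbench. GRCm38 and DESeq2 1.22.2 are named in the submitters' processing notes, while the filter that left the 9049 listed genes is not given there. The expression filter that the methods state belongs to the study's enrichment analysis, which was not used here. The deposited values are a score: the authors scaled each library to nearly the same total and rounded, and in a second table divided that score by 1 size factor per library. Read depth is unknown, so no counting interval is given and precision comes from the spread between mice.

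Groups were taken from the labels, and columns were matched to mice by the mouse number in their names. The design had allowed for a count model. Because the values are not counts, log2 of the TMM-scaled score plus 1 was fitted with limma 3.58.1 in R 4.3.3 (statmod 1.5.0), with 4 group means over 24 libraries. The prior variance was trended and robust, and Benjamini-Hochberg adjustment over 9049 genes was used with a threshold of 0.05. TMM trimmed 30% of log ratios and 5% of mean values on each side. Fold changes on this scale understate the change of low genes. Exact two-sided permutation tests used the 924 divisions of 12 mice. The fit was tested on simulated data.

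Members, lists and tests were chosen with earlier results of these data known. Genes named are the 12 per direction with the smallest p and a mean of at least 5 units, the 8 per direction with the largest difference without overlap, up to 4 per list with the smallest p, the leading genes of 6 h and of the difference between the times, and genes the study names. A gene that this rule names is not reported here. Others are said to be picked after their values were seen. The lists of nucleolar and EGF receptor genes and the roles within the former were also made then. RefSeq GRCm38.p6 matched 8849 gene names, and GENCODE M21 gave 8804 transcript lengths (97.3%). Alternatives were other scalings, pseudocounts of 0.5 and 5, minimum means of 10 and 50 units, the 3 h libraries alone, no trend or robust prior, array weights, each mouse left out and, added after seeing the data, removal of the length trend.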

Additional observations from a re-analysis of the deposited data

Results flagged for a closer look

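In 162 groups of 6 mice (70 genes and 11 list means in each diet), 11 held a mouse whose gap to its neighbour exceeded Dixon's 95% limit for 6 values, where chance gives about 1 in 20. In Con these were m4220, lowest for Cdk12 (3.95 units) and highest for Lamtor1 (95.8 units), m4217, highest for H3f3b (163 units), and m4218, lowest for the methionine cycle list mean (−0.091). In MR they were m4209, highest for Ddx18 (23.2 units) and Tsku (209 units), m4210, lowest for Cobl (6.13 units) and highest for Sltm (26.6 units), and m4204, highest for Fxr1 (39.1 units), lowest for Pxdc1 (32.2 units) and lowest for the methionine cycle list mean (−0.099).

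The diet effect differed between 3 h and 6 h by the interaction test in limma for 6 genes. On the log2 scale the effect at 6 h minus that at 3 h was 1.43 for Trib3, 1.30 for Sesn2, 0.71 for Ikbkg, 0.70 for Mars, 0.60 for Eif4ebp1 and 0.99 for Cars.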

How the results depend on the processing

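At 3 h, 0 genes passed the adjusted test under every alternative tried, with 603 genes at an unadjusted p under 0.05 in the limma fit reported. That count was 389 at a minimum mean of 10 units and 99 at 50 units, where fewer genes are tested, and ran from 389 without MR mouse m4209 to 885 without MR mouse m4216. The share of higher levels among these genes was 57.4%, and 27.3% at a minimum mean of 50 units. The 18 genes without overlap became 4 at 50 units and 8 with no scaling beyond the deposited table. With a mouse left out there were 22 to 69. Fewer mice make a lack of overlap easier to reach, so this rise is no measure of stability. The 6 genes whose diet effects differed between the times became 3 with array weights, at 10 units or with no trend and no robust prior, 0 at 50 units, and 3 to 8 with a mouse left out. The 67 genes of 6 h became 116 with array weights, 20 at 50 units and 45 to 78 with a mouse of 3 h left out. Medians of lists ran, with a mouse left out, from 0.09 to 0.13 for nucleolar genes and from −0.28 to −0.11 for cholesterol synthesis. For the methionine cycle list the median ran from −0.01 to 0.02. Of 70 genes followed, 5 had an opposite sign in 19 of 1474 pairs of gene and setting, all close to 0. With a mouse left out, Asns ran from −0.20 to 0.12, Atf4 from −0.0091 to 0.17, Ddit4 from −0.056 to 0.16, Mars from −0.012 to 0.052 and Trib3 from −0.050 to 0.060. With array weights Mars was at −0.00576. Leaving out the liver with pancreas transcripts is the same as leaving out MR mouse m4223. Apart from the settings named, the cause of these shifts was not tested. No paired analysis was possible because the labels give the mice no shared replicate numbers. Unknown read depth and rounding limit genes under about 10 units.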
